A study of Mus musculus with 6 samples.

Results

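Interferon-stimulated genes are the genes that cells switch on when interferon reaches them, and 36 of them were followed in activated mouse CD8 T cells with and without the Ptpmt1 gene. The members were picked by gene name, and all 36 names were found among the 54532 genes of the deposited table. Of these, 35 had a mean level of at least 0.5 FPKM (fragments counted per gene, scaled to gene length and to a total for each library) and entered the fit of 12654 genes. Ifi44 lay below that level. The study compared 3 libraries from Ptpmt1 knockout mice (KO) with 3 libraries from wild-type mice (WT). In both groups CD8 T cells were purified from spleen and lymph nodes and stimulated for 3 days in culture with beads carrying antibodies to CD3 and CD28. Ptpmt1 encodes a mitochondrial phosphatase needed to make cardiolipin. No unstimulated cells were included. The sources used here do not give the strain, age or sex of the mice, the exons removed or what drove the deletion. Nor do the labels say that the replicates came from separate mice, and the spread behind each p-value may therefore be technical in part.

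Type I interferons bind the receptor made of IFNAR1 and IFNAR2, and the kinases JAK1 and TYK2 then activate STAT proteins. STAT2 and IRF9 are parts of the complex that binds interferon-stimulated response elements (ISRE) in promoters. Interferon gamma, which activated CD8 T cells make themselves, binds IFNGR1 and IFNGR2 and acts through gamma-activated sites (GAS). The products of the induced genes sense viral RNA, cut or block it, tag proteins with ISG15, attack vacuoles that hold pathogens, and switch the signal off again.

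The promoter windows of the members show the elements that these factors read, and 6 are printed because the values below turn on their genes. They come from RefSeq on GRCm38.p6 (the mm10 build) and run from 250 bases before to 50 bases after a start site, read 5′ to 3′ on the strand of the gene. Capitals mark matches to GAAA, NN and GAAA in a row (ISRE-like, on either strand) or, in the Irf1 window, to TTCNNNGAA (GAS-like, the same on both strands). These genes were chosen after their values were seen. By FPKM, Isg15, Oas1a and Ifit3 were highest in library 3 of both groups, Bst2 was higher in each KO library, and Ddx58 and Irf1 were lower in each KO library.
Isg15 chr4:156200769-156201068 (- strand): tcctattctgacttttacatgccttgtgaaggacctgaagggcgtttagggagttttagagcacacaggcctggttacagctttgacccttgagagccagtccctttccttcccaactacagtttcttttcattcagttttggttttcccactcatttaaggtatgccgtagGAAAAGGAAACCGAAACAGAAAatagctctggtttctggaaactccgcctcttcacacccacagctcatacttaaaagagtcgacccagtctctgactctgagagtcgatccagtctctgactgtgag
Oas1a chr5:120907476-120907775 (- strand): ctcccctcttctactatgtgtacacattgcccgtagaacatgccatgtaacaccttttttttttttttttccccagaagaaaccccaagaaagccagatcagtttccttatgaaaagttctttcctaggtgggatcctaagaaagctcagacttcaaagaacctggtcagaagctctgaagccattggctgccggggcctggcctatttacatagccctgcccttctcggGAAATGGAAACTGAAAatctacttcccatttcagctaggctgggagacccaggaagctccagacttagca
Ifit3 chr19:34583279-34583578 (+ strand): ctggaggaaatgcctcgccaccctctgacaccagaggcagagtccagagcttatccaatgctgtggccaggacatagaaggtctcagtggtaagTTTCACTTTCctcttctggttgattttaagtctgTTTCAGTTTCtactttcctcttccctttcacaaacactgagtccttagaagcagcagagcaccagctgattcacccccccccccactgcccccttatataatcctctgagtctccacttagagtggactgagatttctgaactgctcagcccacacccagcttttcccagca
Bst2 chr8:71537423-71537722 (- strand): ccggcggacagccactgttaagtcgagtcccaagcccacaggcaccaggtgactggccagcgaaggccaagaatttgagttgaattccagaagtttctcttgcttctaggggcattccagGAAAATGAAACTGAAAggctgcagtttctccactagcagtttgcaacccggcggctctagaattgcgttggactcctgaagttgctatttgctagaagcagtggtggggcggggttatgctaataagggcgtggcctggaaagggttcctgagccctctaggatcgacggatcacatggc
Ddx58 chr4:40239776-40240075 (- strand): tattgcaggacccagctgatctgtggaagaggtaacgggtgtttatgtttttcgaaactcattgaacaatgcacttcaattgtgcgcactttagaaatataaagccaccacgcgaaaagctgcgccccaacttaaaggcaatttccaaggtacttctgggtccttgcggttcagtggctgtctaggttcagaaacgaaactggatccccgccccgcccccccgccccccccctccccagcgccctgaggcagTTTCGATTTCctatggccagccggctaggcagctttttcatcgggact
Irf1 chr11:53769764-53770063 (+ strand): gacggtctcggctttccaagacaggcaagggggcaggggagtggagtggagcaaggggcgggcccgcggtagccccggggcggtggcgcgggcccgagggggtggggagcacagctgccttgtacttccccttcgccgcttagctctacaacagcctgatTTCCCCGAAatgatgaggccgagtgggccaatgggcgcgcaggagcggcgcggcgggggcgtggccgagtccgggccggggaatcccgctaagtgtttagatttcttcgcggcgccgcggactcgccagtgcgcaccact

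The Isg15 window holds 3 overlapping ISRE-like matches in a row, and those of Oas1a, Ifit3 and Bst2 hold 2 each. In Bst2 the first of them overlaps a GAS-like match. The Oas1a window also has a GAS-like match, left in small letters, 98 bases before the start site and apart from its ISRE-like ones. In Ddx58 the only ISRE-like match lies just after the start site, and the printed Irf1 window has a GAS-like match and no ISRE-like one. A match to these letters is a description of the window and not a measured binding site. RefSeq windows were found for 29 of the 36 members, and 15 of these genes (51.7%) had an ISRE-like match in at least 1 window, against 3.99% of the 27025 genes in the table. A GAS-like match was present in 7 of the 29 (24.1%), against 9.55% of all genes. An ISRE-like match was present in 8 of the 14 members with a window that were highest in library 3 of both groups, and in 7 of the other 15. Among the windowed members whose groups did not overlap by FPKM, 2 of 4 that were lower in KO and 2 of 3 that were higher had a match.

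Reads rebuilt from the FPKM values totalled 16462539 to 16819913 in KO libraries and 14932604 to 16453314 in WT libraries. The total that the FPKM values were scaled to differed from these reads. It was 0.941, 0.780 and 1.096 times the reads in KO libraries 1 to 3. In WT libraries 1 to 3 it was 0.995, 1.03 and 1.07 times the reads. FPKM values of KO library 2 thus stood highest relative to its reads. Ptpmt1 stood at 1.0004, 1.58 and 1.504 FPKM in KO libraries 1 to 3, against 3.75, 3.84 and 4.13 FPKM in WT libraries 1 to 3. The groups do not overlap (log2 fold change -1.26, SE 0.198, limma adjusted p = 0.0884), and without KO library 3 the adjusted p was 0.0344. KO library 3 stood apart from the others. It had 1837 reads of the Y-linked Ddx3y and 0 of Xist, whereas the other 5 libraries had 0 reads of Ddx3y and at least 3513 of Xist. By these reads KO library 3 came from male cells and the other 5 from female cells. Sex thus differed within KO and was not balanced between the groups, and its part in the differences was not tested. All 10 markers of CD8 T cells were detected in every library, with Cd8a at 135, 109 and 145 FPKM in KO and 182, 196 and 219 FPKM in WT libraries, while Cd4 reached at most 0.137 FPKM in KO and 1.86 FPKM in WT libraries. Mitochondrially encoded genes took 2.38% to 7.53% of reads in KO and 3.38% to 4.76% in WT libraries, with the lowest share in library 3 of each group. Results that rest on KO library 3 are given below with and without it.

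Taken over the whole set, the knockout libraries showed no uniform shift. At a Benjamini-Hochberg adjusted p under 0.05, 0 of the 35 members in the fit passed in limma and 0 in limma-voom on rebuilt reads, where 0.0395% of all genes passed in limma. At an unadjusted p under 0.05, 2 members were higher in KO (5.71% of 35, against 11.5% of all genes) and 5 were lower (14.3%, against 10.2%), together 7 of 35 members, against 21.8% of all genes. After rescaling to equal read totals, which gave a median of -0.10 over all genes, 1 member was higher and 6 were lower, against 6.7% and 11.7% of all genes. The median of the members was then -0.16, with 24 of 35 below 0 (68.6%, against 58.0% of all genes). In that setting 0 members were called (0.0237% of all genes higher and 0.0158% lower). By FPKM, the KO and WT values did not overlap for 9 members, 3 higher and 6 lower in KO. That is 25.7% of the 35, against 27.8% of all genes (14.5% higher and 13.3% lower), so the share lies near that of the transcriptome. The median log2 fold change was -0.02 for the 35 members and 0.03 for all genes, with members between -0.81 and 0.69. The counts moved with single libraries, and Sp100 alone kept an unadjusted p under 0.05 whichever library was left out. The count of 5 lower members was 1 without WT library 1, WT library 2 or KO library 1, 2 without KO library 2, 5 without WT library 3 and 12 without KO library 3. The share of all genes that were lower at this p moved too, to 6.06% without WT library 1, 4.92% without WT library 2, 6.24% without KO library 1, 8.31% without KO library 2, 10.4% without WT library 3 and 15.5% without KO library 3. The count of 2 higher members was 0 without WT library 1, 1 without WT library 2 and 3 without WT library 3. It was 2 without KO library 1 or 2, and 4 without KO library 3. Of all genes, 6.69% were higher at this p without WT library 1, 5.7% without WT library 2 and 11.8% without WT library 3. That share was 6.76% without KO library 1, 9.92% without KO library 2 and 19.5% without KO library 3. In bulk libraries fewer cells of a type and less RNA per cell cannot be told apart.

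**Figure D1:**
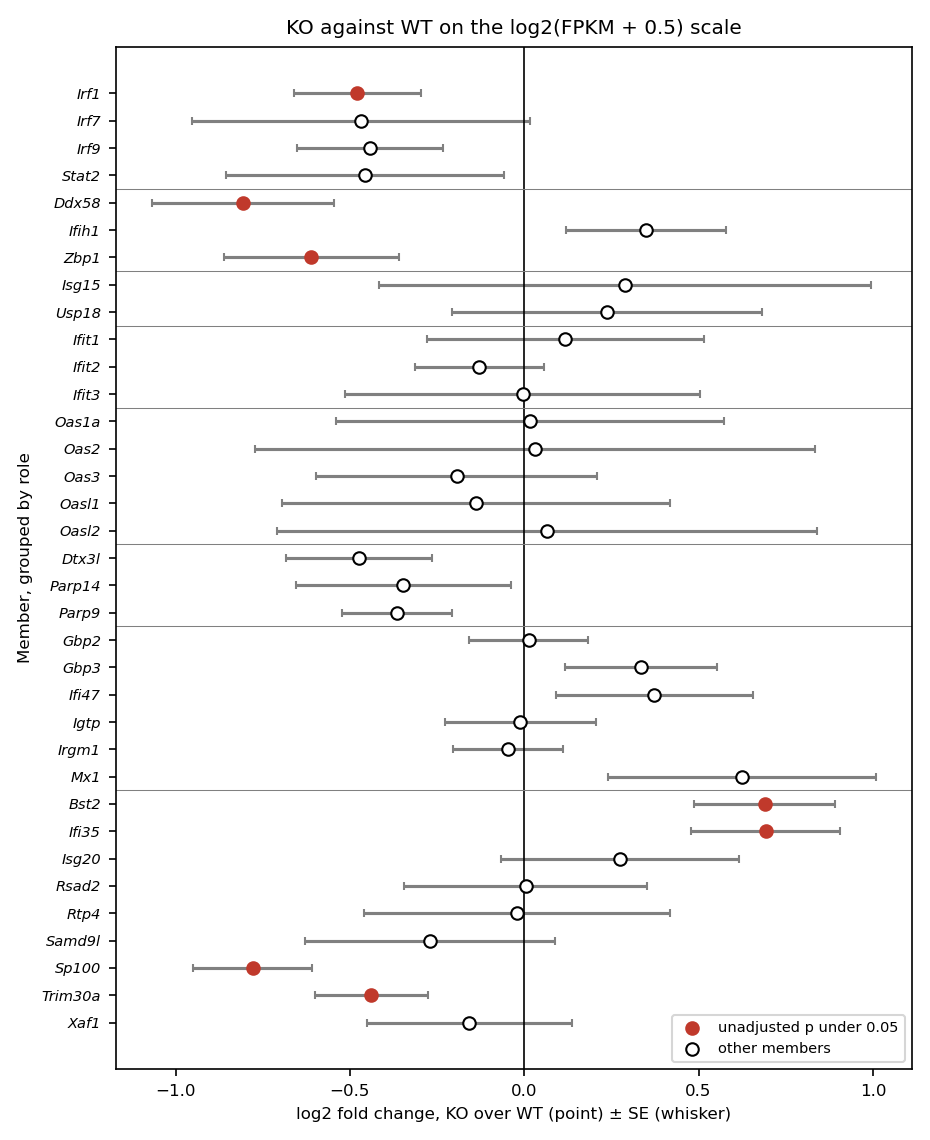
Log2 fold change of each of the 35 members in the fit, KO over WT, on the log2(FPKM + 0.5) scale (point) with its standard error (whisker), grouped by role. Filled points mark the 7 members with an unadjusted p under 0.05; Ddx58 has the lowest value (-0.81) and Ifi35 the highest (0.69).

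The transcription factors of the set were lower in KO on average in all 4 cases, under each scaling tried. Irf1 (ENSMUSG00000018899, chromosome 11, 53770014 to 53778374, plus strand in mm10, GENCODE M21) is induced by interferon gamma and drives part of its response. It had 59.1, 56.6 and 75.2 FPKM in KO libraries 1 to 3, against 81.2, 87.1 and 96.7 FPKM in WT libraries 1 to 3. Each KO value lay below each WT value, and within each group library 3 was the highest (log2 fold change -0.48, SE 0.182, limma adjusted p = 0.194, unadjusted p = 0.0337). Irf9, the DNA-binding part of the type I complex, had 11.8, 12.4 and 16.3 FPKM in KO and 19.5, 21.6 and 14.7 FPKM in WT libraries, and only KO library 3 and WT library 3 crossed (log2 fold change -0.44, SE 0.209, limma adjusted p = 0.267). Reads of Irf9 can be shared with the overlapping Rnf31 on the same strand.

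Stat2, another part of that complex, had 4.64, 4.82 and 11.2 FPKM in KO libraries, against 6.63, 7.54 and 13.9 FPKM in WT libraries. Irf7, which amplifies the production of type I interferon, had 4.54, 6.38 and 18.5 FPKM in KO and 9.98, 9.76 and 15.7 FPKM in WT libraries. For both genes the libraries numbered 3 were above the others of their group, and among the remaining libraries the KO values lay below the WT values. The difference between groups did not exceed this spread, with a log2 fold change of -0.46 (SE 0.399, limma adjusted p = 0.533) for Stat2 and -0.47 (SE 0.484, limma adjusted p = 0.604) for Irf7. Irf7 overlaps Phrf1 on the opposite strand. Without KO library 3 the values were -0.84 for Stat2 and -1.03 for Irf7 (limma adjusted p = 0.12 and 0.0533), and all 4 factors were lower at an unadjusted p under 0.05, as were 15.5% of all genes in that setting.

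**Figure D2:**
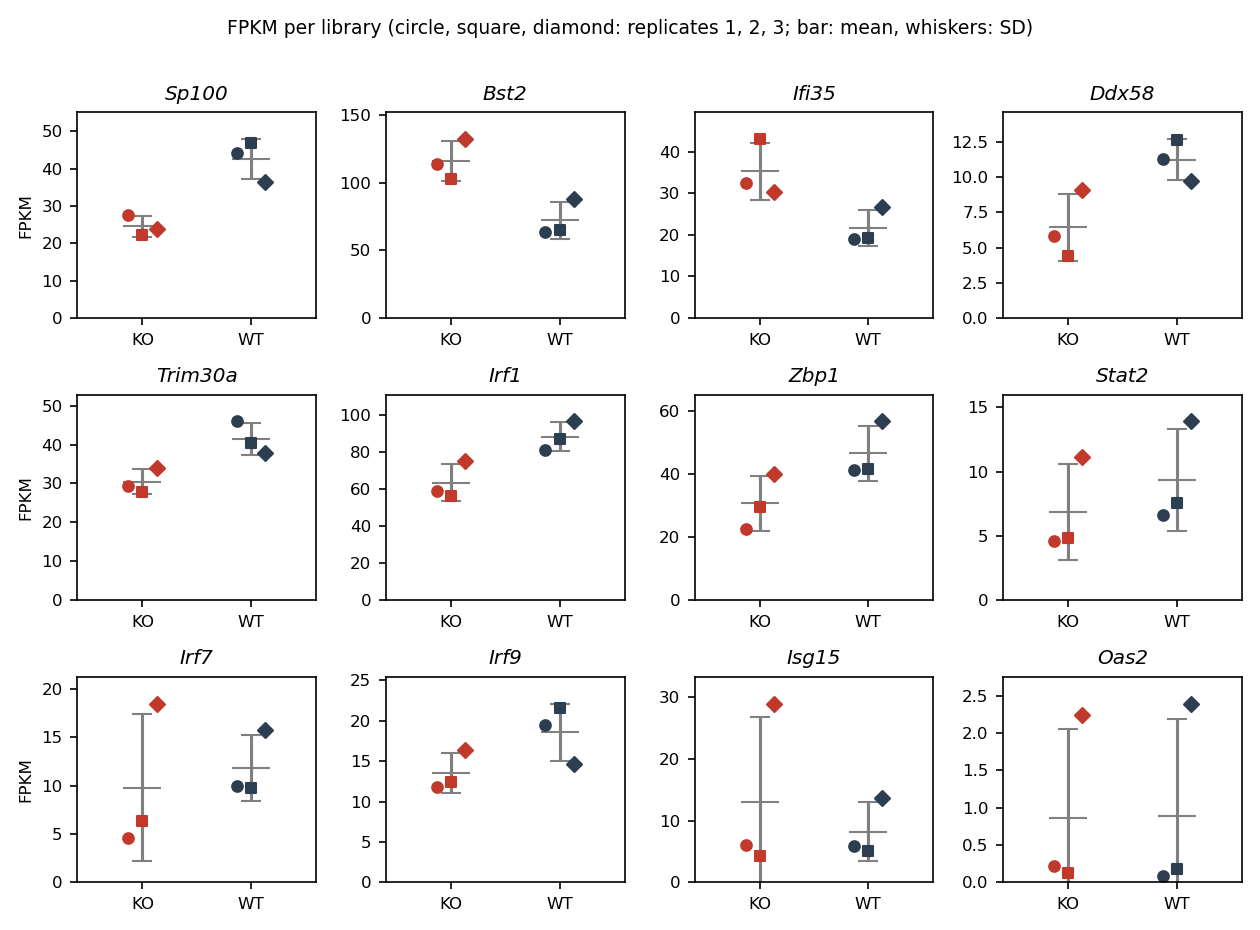
FPKM of 12 members in each library, KO left and WT right, with circles, squares and diamonds for replicates 1 to 3, and the group mean (bar) and SD (whiskers, n = 3). The first 7 panels show members whose groups do not overlap, such as Sp100, with every KO value at or below 27.5 FPKM and every WT value at or above 36.5 FPKM; in Stat2, Irf7, Isg15 and Oas2 the diamond is the highest of both groups.

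Of the 3 sensors of foreign or displaced nucleic acid, Ddx58 (RIG-I, a sensor of viral RNA; ENSMUSG00000040296, chromosome 4, 40203773 to 40239828, minus strand) had 5.81, 4.43 and 9.07 FPKM in KO libraries, against 11.3, 12.7 and 9.76 FPKM in WT libraries. Its groups do not overlap, although KO library 3 came close to WT library 3 (log2 fold change -0.81, SE 0.262, limma adjusted p = 0.156, unadjusted p = 0.0177). The mean in WT was 1.75 times that in KO. Zbp1, a sensor of Z-form nucleic acid that can start necroptosis (ENSMUSG00000027514, chromosome 2, 173206612 to 173218923, minus strand), had 22.7, 29.6 and 40.1 FPKM in KO and 41.2, 41.8 and 56.8 FPKM in WT libraries. Here too each KO value was below each WT value, by a narrow gap (log2 fold change -0.61, SE 0.250, limma adjusted p = 0.218, unadjusted p = 0.0447). Ifih1 (MDA5, a sensor of long double-stranded RNA) ran the other way at a low level, with 1.35, 1.33 and 1.995 FPKM in KO and 0.935, 1.18 and 1.21 FPKM in WT libraries. By FPKM its KO values were all above its WT values, but the difference had an unadjusted p of 0.174 in limma (log2 fold change 0.35, SE 0.230, limma adjusted p = 0.412). KO library 2 had fewer Ifih1 reads (143) than WT libraries 2 and 3 (148 and 173), although its read total was higher.

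Parp9, Dtx3l and Parp14 encode ADP-ribosyltransferases and a ubiquitin ligase that act together in interferon signalling. Parp9 had 30.1, 28.3 and 29.5 FPKM in KO and 41.3, 40.1 and 32.8 FPKM in WT libraries, and its KO libraries were within 1.06-fold of each other and all below the WT libraries (log2 fold change -0.36, SE 0.157, limma adjusted p = 0.235). Dtx3l, which overlaps Parp9 on the opposite strand, had 21.5, 20.5 and 31.6 FPKM in KO, against 30.4, 37.6 and 33.2 FPKM in WT libraries. Parp14 had 9.57, 7.75 and 18.7 FPKM in KO and 13.6, 14.8 and 14.8 FPKM in WT libraries. KO libraries 1 and 2 were below every WT library for all 3 genes, and KO library 3 lay among the WT values for Dtx3l and above them for Parp14. None of the 3 had an unadjusted p under 0.05 (0.0537, 0.0585 and 0.299 in limma for Parp9, Dtx3l and Parp14). Without KO library 3, Dtx3l and Parp14 passed the adjusted threshold (limma adjusted p = 0.042 and 0.0402).

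ISG15 is a ubiquitin-like protein that is attached to other proteins after interferon, and USP18 removes it and also blocks the IFNAR2 receptor chain. Isg15 had 6.05, 4.23 and 28.9 FPKM in KO libraries, against 5.90, 4.996 and 13.7 FPKM in WT libraries. KO library 3 was 6.82 times the lowest KO library, and WT library 3 was 2.74 times the lowest WT library. Usp18 had 4.69, 8.28 and 15.2 FPKM in KO and 5.28, 5.93 and 11.3 FPKM in WT libraries, with library 3 again the highest in each group. The groups overlapped for both genes, and the log2 fold change was 0.29 (SE 0.706) for Isg15 and 0.24 (SE 0.445) for Usp18. Both signs turned without KO library 3, to -0.51 for Isg15 and -0.17 for Usp18.

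The 2′-5′-oligoadenylate synthetases, which are activated by double-stranded RNA, and their relatives OASL1 and OASL2 showed a wide spread within groups. Oas2 had 0.214, 0.120 and 2.24 FPKM in KO libraries (15, 7 and 180 reads), against 0.0823, 0.176 and 2.39 FPKM in WT libraries (6, 12 and 187 reads). Oasl2 had 0.149, 0.0956 and 2.98 FPKM in KO and 0.172, 0.337 and 1.59 FPKM in WT libraries. Both genes were thus near the floor in libraries 1 and 2 and above 1.5 FPKM in library 3, whatever the genotype. Oas1a had 0.843, 2.71 and 6.23 FPKM in KO and 1.98, 2.28 and 3.56 FPKM in WT libraries, and Oas1a reads can be shared with other members of its gene cluster. Oas3 had 3.02, 3.19 and 8.61 FPKM in KO and 3.88, 4.89 and 6.99 FPKM in WT libraries. Oasl1, which restrains Irf7 translation in mice, had 0.390, 0.263 and 2.59 FPKM in KO and 0.796, 0.649 and 1.38 FPKM in WT libraries. For all 5 genes library 3 was the highest in KO and in WT, and each log2 fold change was smaller than its standard error. The family had a median of 0.02, whose sign turned under both read-total scalings (-0.098 at equal totals and -0.38 in limma-voom), and which ran from -0.65 without KO library 3 to 0.32 without KO library 1.

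IFIT proteins bind viral RNA and block its translation. Ifit3 had 6.92, 12.9 and 26.4 FPKM in KO libraries, against 11.0, 9.78 and 22.5 FPKM in WT libraries, and Ifit1 had 3.68, 7.17 and 9.37 FPKM in KO and 4.14, 4.95 and 9.31 FPKM in WT libraries. Both were highest in library 3 of each group. Ifit2 did not, with 16.9, 19.8 and 15.3 FPKM in KO and 21.98, 19.3 and 15.9 FPKM in WT libraries and library 3 the lowest in each group. The 3 log2 fold changes lay between -0.13 and 0.12, each smaller than its standard error. Reads of Ifit1 and Ifit3 can be shared with near copies in the same cluster.

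The interferon-inducible GTPases include the most abundant members. Igtp, of the immunity-related family that attacks pathogen vacuoles, had 318, 226 and 306 FPKM in KO libraries, against 312, 284 and 254 FPKM in WT libraries. Its groups overlapped, with a difference far below its standard error (log2 fold change -0.01, SE 0.216, limma adjusted p = 0.981). Ifi47, of the same family, had 280.1, 376 and 189.6 FPKM in KO and 229, 183 and 219 FPKM in WT libraries. It was highest in KO libraries 1 and 2, and its groups overlapped through KO library 3 (log2 fold change 0.37, SE 0.283, limma adjusted p = 0.475). Gbp2, a guanylate-binding protein, had 239.8, 219.6 and 223 FPKM in KO and 238, 215 and 223 FPKM in WT libraries. In the deposited FPKM it was the steadiest of the 35 members, with a within-group SD of 0.07 on the log2 scale and a log2 fold change of 0.01 (SE 0.171). The fold change was -0.14 both after rescaling to equal read totals (SE 0.20) and in limma-voom (SE 0.21). At equal read totals the SE of Gbp3 was lower, at 0.173. Gbp3 had 38.7, 49.2 and 29.5 FPKM in KO and 33.8, 28.3 and 28.9 FPKM in WT libraries, and Irgm1 had 31.7, 31.1 and 38.7 FPKM in KO and 36.2, 33.6 and 34.6 FPKM in WT libraries, both with overlapping groups. Reads of Igtp can be shared with Irgm2, which overlaps it on the same strand. Mx1, an antiviral dynamin-like GTPase, was low, at 2.75, 3.02 and 4.76 FPKM in KO and 1.31, 1.53 and 3.97 FPKM in WT libraries, and WT library 3 lay among the KO values.

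Among the other effectors, Sp100 had the lowest unadjusted p of the set. Sp100, a component of PML nuclear bodies (ENSMUSG00000026222, chromosome 1, 85649988 to 85709998, plus strand), had 27.5, 22.2 and 23.8 FPKM in KO libraries, against 44.2, 46.8 and 36.5 FPKM in WT libraries. The groups are well apart and KO library 3 lies between the other KO libraries. The means were 24.5 ± 2.73 FPKM in KO and 42.5 ± 5.33 FPKM in WT (SD, n = 3 each), 1.73 times higher in WT (log2 fold change -0.78, SE 0.171, limma adjusted p = 0.102, unadjusted p = 0.00266). Trim30a, a mouse TRIM protein that restrains NF-κB signalling (ENSMUSG00000030921, chromosome 7, 104409025 to 104465193, minus strand), had 29.4, 27.9 and 34.0 FPKM in KO and 46.0, 40.4 and 37.9 FPKM in WT libraries. Each KO value was below each WT value (log2 fold change -0.44, SE 0.162, limma adjusted p = 0.185, unadjusted p = 0.0303). Samd9l, a restriction factor, had 40.5, 58.9 and 24.5 FPKM in KO and 58.6, 52.7 and 33.5 FPKM in WT libraries, with library 3 the lowest in each group and the groups overlapping (log2 fold change -0.27, SE 0.359, limma adjusted p = 0.695).

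By FPKM, Bst2 and Ifi35 were higher in each KO library. Bst2 (tetherin, which holds budding virus at the cell surface; ENSMUSG00000046718, chromosome 8, 71534255 to 71537456, minus strand) had 114, 103 and 132 FPKM in KO libraries, against 64.0, 65.0 and 88.3 FPKM in WT libraries. Its mean was 116 ± 14.8 FPKM in KO and 72.4 ± 13.7 FPKM in WT (SD, n = 3 each), 1.61 times higher in KO (log2 fold change 0.69, SE 0.202, limma adjusted p = 0.135, unadjusted p = 0.0112). At equal read totals the unadjusted p of Bst2 was 0.0816 in limma, and in limma-voom it was 0.0819. That of Ifi35 stayed under 0.05 in both (0.0332 and 0.0415). KO library 2 had fewer Bst2 reads (1220) than WT library 3 (1400), although its read total was higher. Bst2 also marks plasmacytoid dendritic cells. Of the 6 markers listed for those cells, Siglech and Klk1 were at 0 in every library and Tcf4 reached at most 0.225 FPKM. Their summed level was 136, 116 and 197 FPKM in KO and 74.0, 76.1 and 95.8 FPKM in WT libraries, mostly from Bst2 itself and from Cox6a2, at 17.5, 10.2 and 56.8 FPKM in KO and 0.359, 0.383 and 0.167 FPKM in WT libraries. The remaining marker, Ccr9, had 4.54, 3.06 and 7.52 FPKM in KO and 9.58, 10.6 and 7.23 FPKM in WT libraries. Ifi35, a protein that binds NMI (ENSMUSG00000010358, chromosome 11, 101448407 to 101458698, plus strand), had 32.3, 43.0 and 30.4 FPKM in KO and 19.0, 19.3 and 26.6 FPKM in WT libraries. Its lowest KO value lay just above its highest WT value, that of WT library 3 (log2 fold change 0.69, SE 0.213, limma adjusted p = 0.148, unadjusted p = 0.0140).

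The remaining effectors in the fit had overlapping groups and unadjusted p-values between 0.449 and 0.992 in limma. Rtp4 had 4.11, 4.76 and 14.3 FPKM in KO and 5.42, 6.97 and 7.99 FPKM in WT libraries. Isg20, an RNA exonuclease, had 3.72, 3.07 and 8.07 FPKM in KO and 3.58, 3.08 and 4.50 FPKM in WT libraries. Rsad2 (viperin) had 0.572, 0.457 and 1.44 FPKM in KO and 0.831, 0.931 and 0.539 FPKM in WT libraries. In all 3 genes KO library 3 was the highest of the 6 libraries. Xaf1, which promotes cell death, differed in that WT library 3 stood alone, with 7.72, 8.47 and 6.94 FPKM in KO and 6.47, 6.99 and 14.1 FPKM in WT libraries. Ifi44, not in the fit, had 4, 11 and 72 reads in KO libraries and 4, 0 and 20 reads in WT libraries, so that it was detected mainly in the libraries numbered 3.

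Many members were highest in the libraries numbered 3, whatever the genotype. In 18 of the 35 members (51.4%) library 3 was the highest both within KO and within WT, which held for 22.97% of all genes in the fit. KO library 3 was the highest KO library for 25 members (71.4%, against 42.0% of all genes), and WT library 3 the highest WT library for 20 (57.1%, against 40.0%). The median member in KO library 3 was 0.62 above the mean of KO libraries 1 and 2 on the log2(FPKM + 0.5) scale, and in WT library 3 it was 0.35 above the mean of WT libraries 1 and 2. In KO the largest offsets were those of Oasl2 (2.48 in KO and 1.48 in WT), Isg15 (2.40 in KO and 1.26 in WT) and Oas2 (2.04 in KO and 2.21 in WT). All 5 OAS genes, Isg15 and Usp18 were highest in library 3 of both groups, as was Mx1 alone among the 6 GTPases and none of Parp9, Dtx3l and Parp14. The median within-group SD on the log2 scale was 0.42 for the members and 0.30 for all genes, and it was 0.86 for the 5 OAS genes and 0.25 for the 6 GTPases.

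**Figure D3:**
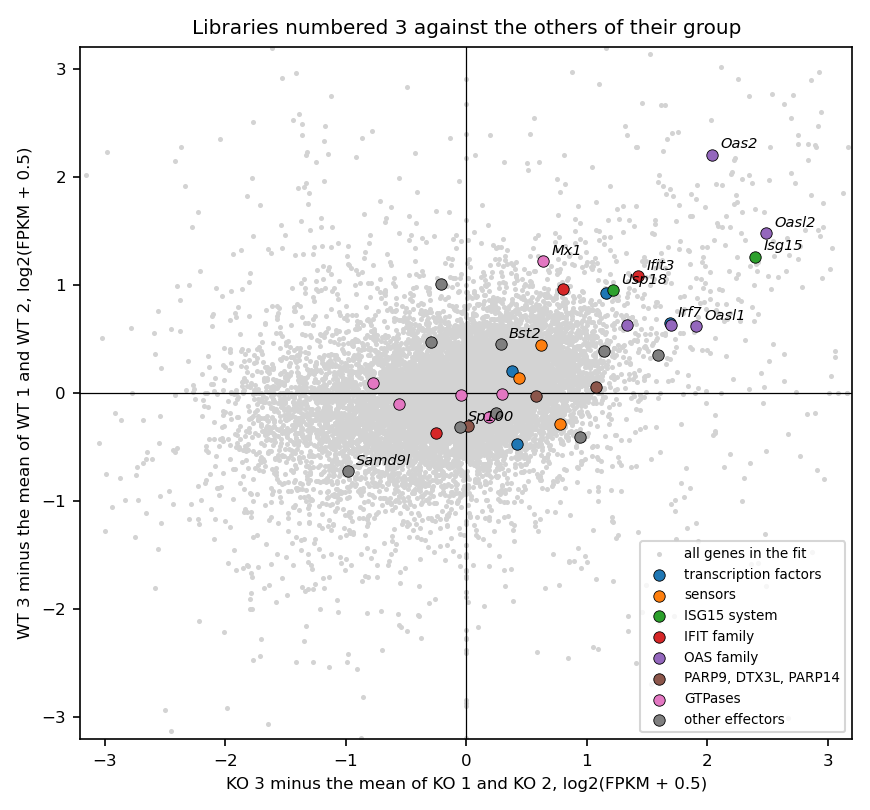
Each point is a gene; the horizontal axis gives KO library 3 minus the mean of KO libraries 1 and 2, the vertical axis WT library 3 minus the mean of WT libraries 1 and 2, both as log2(FPKM + 0.5). Grey points are all genes in the fit (56 lie outside the axes), coloured points the 35 members by role; the OAS genes, Isg15, Usp18, Ifit3 and Irf7 lie in the upper right, and Samd9l in the lower left.

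Other genes were also higher in these libraries. Among MHC class I presentation genes, 10 of 19 (52.6%) were highest in library 3 of both groups. Among the 66 other interferon-stimulated genes in the fit, 23 (34.8%) were, with KO library 3 the highest KO library for 56.1% and WT library 3 the highest WT library for 39.4%, near the 40.0% of all genes. Their median offset was 0.37 in KO library 3 and -0.071 in WT library 3. Of 13 negative regulators, 6 (46.2%) were highest in both, with median offsets of 0.27 in KO library 3 and 0.085 in WT library 3. The share was 41.7% of 12 signalling genes, 38.1% of 21 nucleic acid sensing genes, 30.8% of 13 further interferon-gamma-inducible GTPases and 20% of 5 receptor chains. It was 22.97% of all genes. The feedback inhibitor Socs1, chosen after its values were seen, had 14.3, 12.9 and 51.0 FPKM in KO libraries and 14.2, 12.9 and 43.2 FPKM in WT libraries, and Socs3 had 9.25, 11.9 and 28.7 FPKM in KO and 14.7, 19.1 and 56.8 FPKM in WT libraries. Of 6 gamma-delta T cell markers, 5 were highest in library 3 of both groups, with a summed level of 27.4, 64.3 and 174 FPKM in KO and 29.5, 26.4 and 52.8 FPKM in WT libraries, and none was at 0 in every library. Its main contributors were Tcrg-C4, at 9.22, 30.7 and 59.1 FPKM in KO and 10.9, 7.07 and 13.2 FPKM in WT libraries, and Tcrg-C2, at 8.90, 18.2 and 62.7 FPKM in KO and 9.56, 10.2 and 18.4 FPKM in WT libraries. Of 7 B cell markers, 5 were highest in library 3 of both groups, but Ms4a1 and Pax5 reached at most 0.865 FPKM (Ms4a1 in WT library 3), and the summed level of 258 to 332 FPKM in KO and 319 to 408 FPKM in WT libraries came mostly from Ighm. Cd79b alone of that list had an unadjusted p under 0.05 in limma, at 13.2, 12.5 and 10.7 FPKM in KO and 22.7, 16.9 and 13.9 FPKM in WT libraries. Neutrophil and mast cell markers (4 of 7 highest in both) summed to 11.2, 7.56 and 37.3 FPKM in KO and 7.57, 4.71 and 13.3 FPKM in WT libraries, mostly from Cpa3 and Mpo, and Ly6g was at 0. Macrophage, monocyte and dendritic cell markers (2 of 11) summed to 4.83 to 11.5 FPKM in KO and 7.70 to 11.1 FPKM in WT libraries, with Cd68 at 1.57, 1.39 and 1.98 FPKM in KO and 2.62, 3.26 and 3.44 FPKM in WT libraries, and Cd209a was at 0. Natural killer cell markers (2 of 6) summed to 18.5 to 24.2 FPKM in KO and 18.9 to 28.8 FPKM in WT libraries, mostly from Eomes, and Klra8 reached at most 1.94 FPKM. All 6 were highest in WT library 3 of the WT libraries. Markers of CD4 and regulatory T cells (1 of 5, with Zbtb7b at 2.02, 1.62 and 5.44 FPKM in KO and 0.655, 1.22 and 1.20 FPKM in WT libraries) summed to 5.47 to 10.5 FPKM in KO and 7.35 to 9.15 FPKM in WT libraries, and erythroid and platelet markers (0 of 7) to 7.07 to 12.2 FPKM in KO and 3.64 to 13.8 FPKM in WT libraries, mostly from Hbb-bs and Pf4. CD8 T cell markers summed to 4250, 6887 and 2129 FPKM in KO libraries and 4787, 4363 and 3590 FPKM in WT libraries, lowest in library 3 of each group, although Cd8a was highest there. Trac had 189.6, 171 and 125 FPKM in KO and 247, 269.6 and 243 FPKM in WT libraries, and Cd3e had 27.1, 20.4 and 31.9 FPKM in KO and 38.5, 42.7 and 37.7 FPKM in WT libraries, both lower in each KO library. Of the 10 CD8 T cell markers, 3 were lower in each KO library, as were 13.3% of all genes. The log2 fold change was below 0 for 8 of the 10 and above 0 for 2. Without KO library 3 it was below 0 for 4 and above 0 for 6, with a median of 0.02. The part of these differences in the interferon-stimulated genes was not tested.

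**Figure D4:**
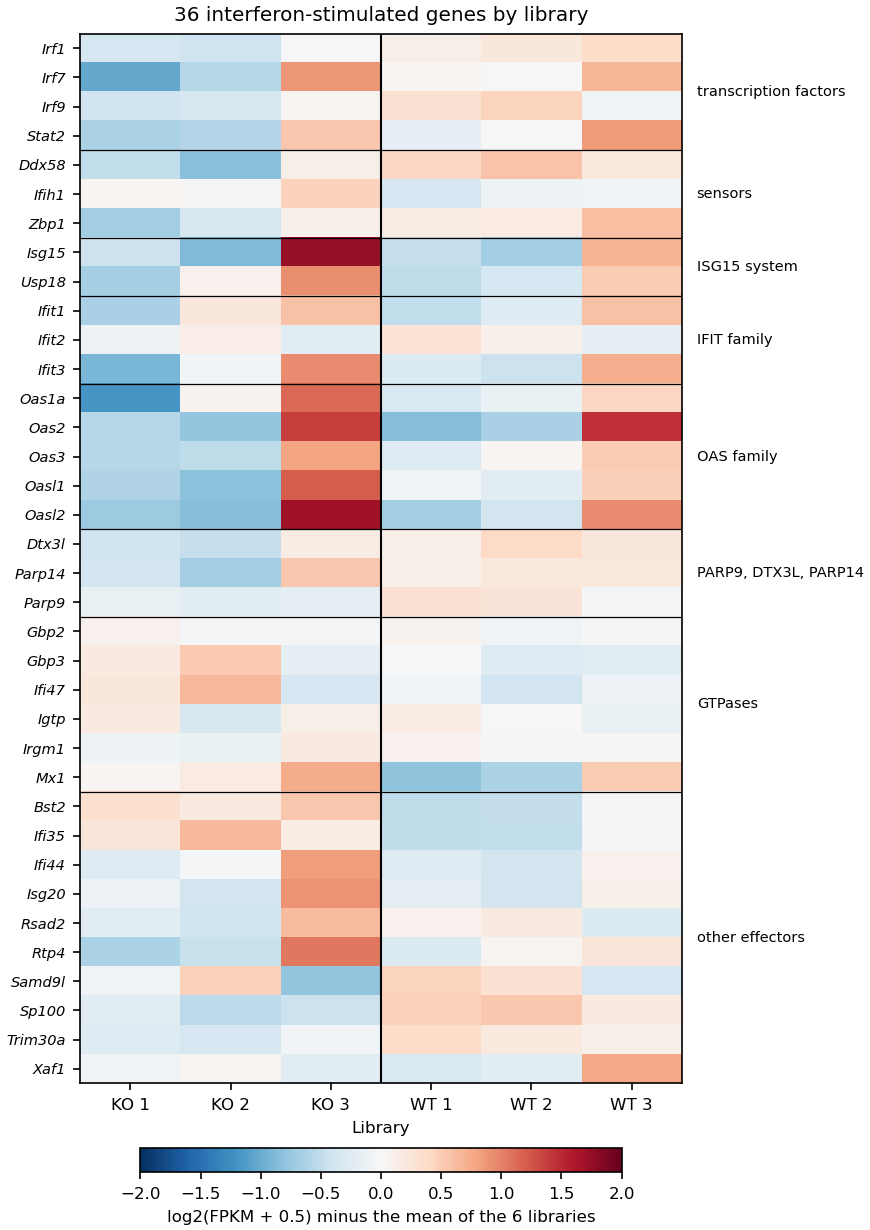
Log2(FPKM + 0.5) of the 36 members in each library minus the mean of the 6 libraries, KO left and WT right of the black line, by role. Red is above and blue below the mean; KO 3 and WT 3 are red across Isg15, Usp18, Ifit1, Ifit3 and the OAS genes, while Sp100, Trim30a and Parp9 are blue or near the mean in KO and red or near the mean in WT.

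Without KO library 3, 5 members passed the adjusted threshold, all lower in KO, which is 14.3% of 35 against 13.7% of all genes called in either direction. By direction, 5.58% of all genes were called lower and 8.12% higher. They were Ddx58 (log2 fold change -1.07, SE 0.186, limma adjusted p = 0.0344), Dtx3l (-0.67), Irf1 (-0.60), Parp14 (-0.70) and Sp100 (-0.76, limma adjusted p = 0.0435). At an unadjusted p under 0.05, 12 members (34.3%) were lower and 4 (11.4%) higher, against 15.5% and 19.5% of all genes. The median log2 fold change of the members was -0.48 in this setting, where that of all genes was 0.03. WT library 3, which is high in many of the same genes, then has no counterpart in KO. With both libraries numbered 3 left out, a comparison of 2 KO with 2 WT libraries chosen after seeing the data, the median was -0.18, and 5 members passed again. Ddx58, Irf9 and Sp100 were lower (limma adjusted p = 0.0351, 0.0379 and 0.0396) and Bst2 and Ifi35 higher (limma adjusted p = 0.0385 and 0.0413). These 5 are 14.3% of the 35, against 14.7% of all genes called (8.4% higher and 6.32% lower). With no adjustment, 5 members had a p under 0.05 and were higher (20.7% of all genes), and 11 were lower (17.4% of all genes). Ddx58 and Sp100 were called in both settings.

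The rest of the pathway was followed in gene lists that hold no member. Among the ligands, Ifng was the only one in the fit, at 5.79, 13.1 and 12.7 FPKM in KO and 6.32, 3.97 and 6.33 FPKM in WT libraries. Only KO libraries 2 and 3 stood above the WT values (log2 fold change 0.81, SE 0.342, limma adjusted p = 0.229, unadjusted p = 0.0498). Of the other 20 ligands of type I and type III interferon, 16 were at 0 in every library, Ifnb1 among them, and none exceeded 0.185 FPKM. For Ifng the unadjusted p stayed under 0.05 without KO library 1 and was above it without any of the other 5 libraries. It was also above 0.05 under each other scaling tried, limma-voom among them. The same held without the mean-variance trend, with the replicate number as a block, and with a lower filter on the level or none.

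Receptor chains were lower in KO on average for 5 of the 5 genes in the fit, under each scaling tried, and 3 had an unadjusted p under 0.05 (60%, against 10.2% of all genes that were lower at this p). Ifnar1 had 21.1, 22.7 and 22.3 FPKM in KO libraries, against 31.8, 36.2 and 27.5 FPKM in WT libraries (log2 fold change -0.51, SE 0.160, limma adjusted p = 0.150). Ifnar2 had 21.8, 17.1 and 16.9 FPKM in KO and 27.4, 29.7 and 22.9 FPKM in WT libraries, and Ifngr1 had 98.9, 112 and 93.3 FPKM in KO and 151, 155 and 116 FPKM in WT libraries. The groups did not overlap for these 3 chains, and in each of them WT library 3 was the lowest WT library. Of all genes, 13.3% had groups that did not overlap and were lower in KO. The median log2 fold change of the 5 chains was -0.46, and none was called. The count of 3 was 0 without WT library 1 or 2 (6.06% and 4.92% of all genes were then lower at this p), 1 without KO library 1 (6.24%) and 3 without each other library (8.31% to 15.5%).

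**Figure D5:**
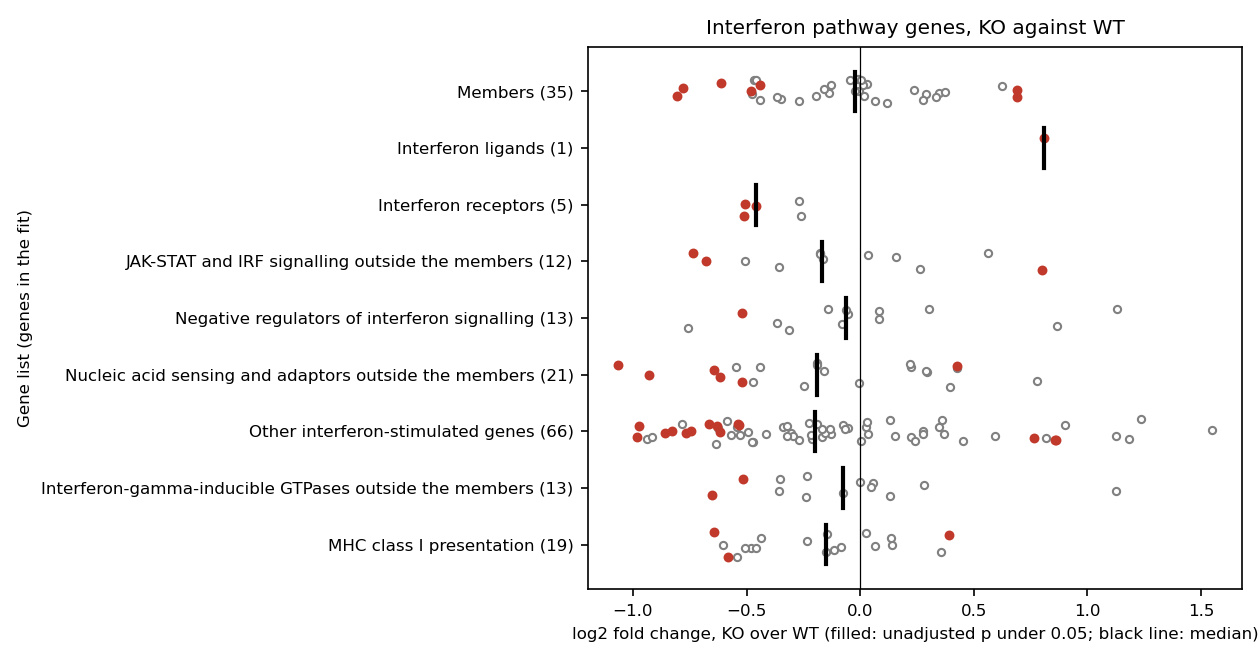
Log2 fold change, KO over WT, of each gene in the fit (points) for the 35 members and 8 further interferon pathway lists, with the number of genes in the fit in brackets. Filled points have an unadjusted p under 0.05 and black lines are medians; all 5 receptor chains lie left of 0, and the median of the 66 other interferon-stimulated genes is -0.20.

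In the signalling list, 2 of 12 genes were lower and 1 higher at an unadjusted p under 0.05 (16.7% and 8.33%, against 10.2% and 11.5% of all genes). Jak1, the kinase shared by both receptor types, had 68.0, 87.7 and 64.2 FPKM in KO libraries, against 136, 139.7 and 94.0 FPKM in WT libraries, and its groups do not overlap (log2 fold change -0.74, SE 0.228, limma adjusted p = 0.149). Irf2, which opposes IRF1, had 4.64, 4.04 and 8.55 FPKM in KO and 9.21, 8.73 and 9.13 FPKM in WT libraries. Irf4, induced by the T cell receptor, ran the other way, with 9.76, 8.70 and 20.1 FPKM in KO and 6.79, 6.06 and 7.17 FPKM in WT libraries. The count of 2 was 4 without KO library 3 (15.5% of all genes) and 1 without KO library 2 or WT library 3 (8.31% and 10.4%). It was 0 without each other library (4.92% to 6.24% of all genes). Of the 13 negative regulators, Pias3 alone had such a p (7.69% lower, against 10.2% of all genes), at 1.82, 2.53 and 2.25 FPKM in KO and 3.26, 3.74 and 3.05 FPKM in WT libraries.

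Nucleic acid sensing genes outside the members had 5 of 21 lower and 1 higher at an unadjusted p under 0.05 (23.8% and 4.76%, against 10.2% and 11.5% of all genes). Ikbke, a kinase that activates IRF3 and IRF7, had 11.2, 9.13 and 9.67 FPKM in KO libraries, against 19.7, 21.1 and 17.7 FPKM in WT libraries (log2 fold change -0.93, SE 0.156, limma adjusted p = 0.0884). Samhd1, which degrades nucleotides and restricts retroviruses, had 41.5, 35.9 and 39.6 FPKM in KO and 95.8, 109.5 and 52.6 FPKM in WT libraries. Zc3hav1 (ZAP, which binds viral RNA) had 50.7, 53.4 and 53.1 FPKM in KO and 83.7, 95.9 and 68.7 FPKM in WT libraries. In all 3 genes each KO library lay below each WT library, and WT library 3 was the nearest to KO. Trex1 was listed at 0 in every library. With KO library 3 left out, 8 sensing genes were lower and 3 higher at this p (15.5% and 19.5% of all genes). Without KO library 1, WT library 1 or WT library 2, 3 were lower (6.24%, 6.06% and 4.92% of all genes).

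Among 66 other interferon-stimulated genes in the fit, 11 were lower and 3 higher in KO at an unadjusted p under 0.05 (16.7% and 4.55%, against 10.2% and 11.5% of all genes), none was called, and the median was -0.20. Of the 66, without KO library 3, 21 were lower and 6 higher (15.5% and 19.5% of all genes), and 11 were called lower and 1 higher (5.58% and 8.12% of all genes). The count of 11 lower was 4 without KO library 1 or WT library 2, 5 without WT library 1 and 7 without WT library 3, in which 6.24%, 4.92%, 6.06% and 10.4% of all genes were lower. Ifi206, of the family that binds cytosolic DNA, had 17.0, 19.6 and 22.9 FPKM in KO libraries, against 38.3, 44.4 and 27.6 FPKM in WT libraries. Ifi213, of the same family, had 6.78, 9.61 and 5.82 FPKM in KO and 16.3, 18.4 and 10.5 FPKM in WT libraries. Shisa5 had 168, 168 and 215 FPKM in KO and 315, 333 and 273 FPKM in WT libraries. All 3 had groups that do not overlap, as did Gm4951 in the other direction, at 3.67, 6.71 and 7.21 FPKM in KO and 2.66, 2.59 and 3.47 FPKM in WT libraries. The Ifi200 genes are near copies of each other, so reads can be shared between them. Of 13 further interferon-gamma-inducible GTPases, 2 were lower at this p (15.4%, against 10.2% of all genes). Gbp9 had 20.6, 19.2 and 28.7 FPKM in KO and 34.3, 38.0 and 34.7 FPKM in WT libraries, and Gbp10 had 10.7, 12.3 and 13.1 FPKM in KO and 20.9, 19.6 and 12.9 FPKM in WT libraries. The groups of Gbp10 overlapped, and 5 of the 13 were lower at this p without KO library 3 (15.5% of all genes).

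MHC class I presentation genes, which interferon raises so that infected cells can be recognised, had 2 of 19 lower (10.5%, against 10.2% of all genes) and 1 higher (5.26%, against 11.5%) at an unadjusted p under 0.05, with a median log2 fold change of -0.15. Without KO library 3, 9 were lower, 5 of them called, where 15.5% of all genes were lower and 5.58% called lower. Without KO library 1 or WT library 2 none was lower at this p (6.24% and 4.92% of all genes). Nlrc5, the activator of class I genes, had 25.5, 21.0 and 32.0 FPKM in KO libraries, against 37.6, 39.4 and 39.5 FPKM in WT libraries, and its groups do not overlap (log2 fold change -0.58, SE 0.188, limma adjusted p = 0.156). Erap1, which trims peptides, had 34.0, 34.2 and 35.7 FPKM in KO and 25.7, 23.9 and 29.6 FPKM in WT libraries. The class I gene H2-Q4 had 67.9, 70.3 and 107 FPKM in KO and 101, 125 and 153 FPKM in WT libraries, and its reads can be shared with near-identical class I genes.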

How the data were processed

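The deposited table gives FPKM per gene and sample, calculated by the authors, and the gene length in bases. The submitters' processing notes name featureCounts 1.5.0-p3, HISAT2 2.0.5, DESeq2, Trim Galore and the mm10 build, with no roles stated. Per the labels' protocols, libraries came from a stranded mRNA kit. The sources used here do not give the annotation release or how strand was used in counting, so overlapping genes and near copies are uncertain. Whole reads were rebuilt from the steps of FPKM times length (tolerance 0.05, at least 99.99% of values up to 2000 reads).

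Values were tested as log2(FPKM + 0.5) with limma 3.58.1 in R 4.3.3 (lmFit, eBayes with trend, 2-sided) over the 12654 genes whose mean was 0.5 FPKM or more, with Benjamini-Hochberg adjustment over all of them. On this scale the fold change of a low gene is understated. The steps were tested on simulated data. Coordinates are from GENCODE M21 (mm10), counted from 1. Values in every sample are given for members with an unadjusted p under 0.05 and groups that do not overlap, the 4 transcription factors and the 6 most abundant members, and were added for the rest. From other lists, up to 4 genes of lowest unadjusted p under 0.05 are named, or the 2 most abundant where none had one; a gene that this rule names is not reported here. The members and lists were chosen with earlier results of these data known. Tables and plots used Python 3.11.15, pandas 2.3.3 and matplotlib 3.10.9.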

Additional observations from a re-analysis of the deposited data

How the results depend on the processing

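The number of members called was 0 in the main test, 21 with sample weights, and 5 with both libraries numbered 3 left out, an alternative chosen after seeing the data. Leaving out each library in turn gave 0 to 5. Sample weights gave KO library 1 a weight of 36.4, the estimation stopped before converging, and 7200 of all genes were called, so no statement of the report rests on those values, which are listed here only for completeness. Members higher at an unadjusted p under 0.05 numbered 2, against 1 after rescaling to equal read totals, 1 with limma-voom, 5 with sample weights, 5 with both libraries numbered 3 left out, and 0 to 4 with each library left out. Those lower numbered 5, against 18 with sample weights, 11 with both libraries left out, and 1 to 12 with each library left out. The median of the members was -0.02, against -0.16 at equal read totals, -0.21 with limma-voom (where Oas1a was the middle member), -0.37 with sample weights and -0.48 to 0.05 with each library left out. Members whose groups did not overlap numbered 9, against 24 of 35 with both libraries left out (where 68.3% of all genes did not overlap) and 9 to 21 with each library left out (30.6% to 53.3% of all genes, both highest without KO library 3). The other settings stayed within 1.5 times these counts. The cause was not tested.

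Equal read totals moved the median of all genes to -0.10, and limma-voom to -0.12, against 0.03 as deposited. Of 35 members, 17 changed sign in at least 1 setting, none of them among the 7 with an unadjusted p under 0.05. Signs turned for Gbp2 (-0.14), Ifit1 (-0.019), Oas1a (-0.098) and Rsad2 (-0.057) at equal totals, for Gbp2 (-0.14), Ifit1 (-0.028), Oas1a (-0.21), Oasl2 (-0.52) and Rsad2 (-0.19) in limma-voom, for Oas1a (-0.037), Oasl2 (-0.14) and Rsad2 (-0.029) at a pseudocount of 0.1, and for Rsad2 (-0.0030) with median-of-ratios scaling. With sample weights they turned for Ifit1 (-0.37), Igtp (0.12), Oas1a (-1.02), Oas2 (-0.060), Oasl2 (-0.37), Rsad2 (-0.32), Usp18 (-0.33) and Xaf1 (0.070), and with both libraries left out for Isg15 (-0.091), Oas1a (-0.34), Oasl2 (-0.27), Rsad2 (-0.45) and Xaf1 (0.25). With each library left out the ranges were -0.025 to 0.053 for Gbp2, -0.15 to 0.47 for Ifit1, -0.48 to 0.45 for Ifit3, -0.10 to 0.14 for Igtp, -0.15 to 0.010 for Irgm1, -0.51 to 0.81 for Isg15, -0.11 to 0.53 for Isg20, -0.55 to 0.61 for Oas1a, -0.65 to 0.77 for Oas2, -0.64 to 0.046 for Oas3, -0.77 to 0.24 for Oasl1, -0.76 to 0.56 for Oasl2, -0.31 to 0.20 for Rsad2, -0.55 to 0.29 for Rtp4, -0.57 to 0.057 for Samd9l, -0.17 to 0.63 for Usp18 and -0.35 to 0.18 for Xaf1.

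The labels give both groups replicate numbers 1 to 3 but do not say that a number marks a shared mouse or day. Deviations from the group means correlated at 0.13, 0.067 and 0.33 across genes for pairs 1 to 3, and WT library 2 correlated best with KO library 1, so the numbers were not taken as pairs. With the replicate block, 0 members were called, and those at an unadjusted p under 0.05 numbered 3 higher and 5 lower (12.4% and 10.7% of all genes). The median stayed at -0.02, and 12 of all genes were called against 5 without the block. Low members such as Oas2, at 6 to 187 reads, carry more counting error than abundant ones, and its part in their spread was not tested.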
